A study of Mus musculus with 23 samples.

Results

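Gene expression was compared between the 2 ends of the sorted PY230 tumour fractions, basal SOX10 high cells (2 libraries) and luminal SOX10 low cells (2 libraries), and the 2 libraries of luminal SOX10 high cells were then placed between them. These 6 libraries make up the PY230 table of a series of 23 RNA-seq libraries of mouse mammary cells, and the 4 of 23 that form the ends were chosen by the group names in the sample titles. PY230 is a cell line from a mouse mammary tumour driven by the polyoma middle T antigen. All 6 libraries came from tumours that PY230 cells of the C57BL6J strain formed after transplantation into mice of the same strain, and the tumours were dissected and the cells sorted by flow cytometry. The sort markers and gates, the age of the mice and the animal behind each library were not stated in the labels, so a group rests on 1 line, and p-values measure only the spread between libraries. No basal SOX10 low PY230 fraction was analysed here, so between the ends the basal or luminal gate and the SOX10 level differ together and cannot be told apart. Normal fetal and adult mammary populations, 2 libraries each, come in a table of their own and are used once, near the end.

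The mammary gland has an outer layer of basal, or myoepithelial, cells, which contract around the ducts and alveoli and lie on the basement membrane, and an inner luminal layer. Luminal cells are divided into progenitors, which give rise to the milk-making alveolar cells, and hormone-sensing mature cells, which carry the receptors for oestrogen and progesterone. SOX10 is a transcription factor of the SOX family, known for its part in the neural crest and its glial and pigment cell descendants, and in the mammary gland it is found in stem and progenitor cells.

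Levels are RPKM, reads per unit of gene length and of library size, and differences are log2 fold changes of RPKM + 1, each with its standard error. A gene was called where limma's adjusted p was under 0.05 over the 13136 of 24511 genes with at least 1 RPKM in at least 2 of the 6 libraries, and "rose" and "fell" are used of called genes only. RPKM hold no read counts. Relative depth was estimated from the most frequent ratio of RPKM to the first basal SOX10 high library at genes under 1 RPKM in both. This takes that ratio to come from genes with equal read counts, which was not checked. Depth came to 0.916 for the other basal SOX10 high library, 1.34 and 1.66 for luminal SOX10 high and 1.52 and 1.15 for luminal SOX10 low cells. By this estimate the luminal libraries were the deeper ones, and the part of depth in the results was not tested. Between 11918 and 12405 genes reached 1 RPKM. The Euclidean distance over all tested genes on the log2 scale was 40.5 within basal SOX10 high, 48.6 within luminal SOX10 high and 35.7 within luminal SOX10 low cells, and between the ends it was 138 to 149. The luminal SOX10 high libraries lay 109 to 118 from basal SOX10 high libraries. From luminal SOX10 low libraries the first lay 95.1 and 94.1 away and the second 65.5 and 70.8, so the second stood nearer to that end, and results that rest on this group are given for each library.

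The labels were checked first. Sox10 had 71.97 and 78.3 RPKM in basal SOX10 high, 101 and 66.9 in luminal SOX10 high and 13.6 and 11.01 in luminal SOX10 low cells. Both SOX10 high fractions lay above the luminal SOX10 low libraries without overlap, and basal over luminal SOX10 high cells gave no call (log2 fold change -0.13 ± 0.21, adjusted p = 0.649). Since the fractions are named by SOX10, this follows from the sort. Krt14, a keratin of the basal layer, had 217 and 137 RPKM in basal SOX10 high, 8.39 and 11.5 in luminal SOX10 high and 5.54 and 3.05 in luminal SOX10 low cells. The luminal keratin genes Krt8 and Krt18 ran the other way. Krt18 had 97.1 and 161 RPKM in basal SOX10 high, 1440.2 and 1667 in luminal SOX10 high and 2920.4 and 3125 in luminal SOX10 low cells. Epcam, the surface protein of epithelial cells, had 81.9 and 64.2 RPKM in basal SOX10 high, 507 and 401 in luminal SOX10 high and 542 and 511 in luminal SOX10 low cells. It fell in basal SOX10 high cells (log2 fold change -2.84 ± 0.19, adjusted p = 6.96e-05), where it was still well above 0, so the marker genes fit both names.

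Between the ends 7254 genes were called (55.2% of those tested), 2865 higher (21.8%) and 4389 lower (33.4%) in basal SOX10 high cells. Of these, 3802 (28.9%) also had an absolute log2 fold change of at least 1, 1754 higher (13.4%) and 2048 lower (15.6%). The median over all genes was -0.16. With quantile normalization it was -0.06 and with median-of-ratios factors -0.02, and the split was 3326 higher to 3851 lower and 3471 to 3581. The excess of lower genes therefore depended on the scaling, and changes are read relative to that median. Without the second basal SOX10 high library 1860 genes were called higher.

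Genes of the basal layer led the higher genes. Col17a1, a transmembrane collagen of the hemidesmosomes that fix basal cells to the basement membrane, had 382 and 327 RPKM in basal SOX10 high, 8.38 and 10.9 in luminal SOX10 high and 5.29 and 2.64 in luminal SOX10 low cells. It had the largest log2 fold change of the called genes whose ends did not overlap (log2 fold change 6.21 ± 0.27, adjusted p = 2.89e-05). Acta2, the smooth muscle actin of contractile cells, had 1904 and 1670 RPKM in basal SOX10 high, 46.5 and 56.7 in luminal SOX10 high and 35.1 and 18.7 in luminal SOX10 low cells, the largest of all genes in the first basal SOX10 high library (log2 fold change 6.06 ± 0.28, adjusted p = 3.18e-05). Krt5, the keratin partner of Krt14, had 388 and 391 RPKM in basal SOX10 high, 10.8 and 17.2 in luminal SOX10 high and 6.98 and 3.45 in luminal SOX10 low cells (log2 fold change 6.03 ± 0.31, adjusted p = 3.58e-05). In each of these genes the basal SOX10 high libraries lay more than 10-fold above all 4 luminal ones. The growth factor binding protein gene Igfbp2 (6.16), the monooxygenase-like gene Moxd1 (5.93), the calpain-like gene Capn6 (5.80), the myosin light chain gene Myl9 (5.74), the cytokine gene Il17b (5.71), the neurotrophin receptor gene Ntrk3 (5.71), the matricellular protein gene Ctgf (5.56), Ly6h (5.55) and Id4 (5.53), an inhibitor of basic helix-loop-helix factors, completed the 12 largest log2 fold changes among genes with a mean of at least 5 RPKM in the higher end and no overlap between the ends.

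Genes of luminal cells led the lower genes. Fgb, the beta chain of fibrinogen, had 17.5 and 35.1 RPKM in basal SOX10 high, 221 and 407 in luminal SOX10 high and 946 and 1075 in luminal SOX10 low cells, with the lowest log2 fold change (log2 fold change -5.29 ± 0.38, adjusted p = 8.93e-05). Krt19, a luminal keratin, had 68.5 and 186 RPKM in basal SOX10 high, 795 and 1818 in luminal SOX10 high and 4490.3 and 3868 in luminal SOX10 low cells and was the gene with the largest RPKM in both luminal SOX10 low libraries (log2 fold change -5.19 ± 0.54, adjusted p = 0.000351). Cited1, a transcriptional coactivator linked to the oestrogen receptor, had 26.01 and 41.5 RPKM in basal SOX10 high, 243 and 374 in luminal SOX10 high and 889 and 1251 in luminal SOX10 low cells (log2 fold change -4.96 ± 0.31, adjusted p = 5.49e-05). In all 3 genes the groups did not overlap, and the luminal SOX10 high libraries lay between the ends, the second one nearer luminal SOX10 low. Others of the 12 most negative were R3hdml (-5.18), the tight junction gene Cldn4 (-5.07), the stress-response gene Nupr1 (-5.00), the fibrinogen gamma chain gene Fgg (-4.95), the cornified envelope gene Sprr1a (-4.94), the uroplakin gene Upk3a (-4.94), AW112010 (-4.92) and Ly6d (-4.83). Upk3a was uneven within luminal SOX10 low cells, at 50.3 and 290.4 RPKM. In each of the genes named here but Upk3a the second basal SOX10 high library was above the first, as was the second luminal SOX10 high library above the first.

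**Figure D1:**
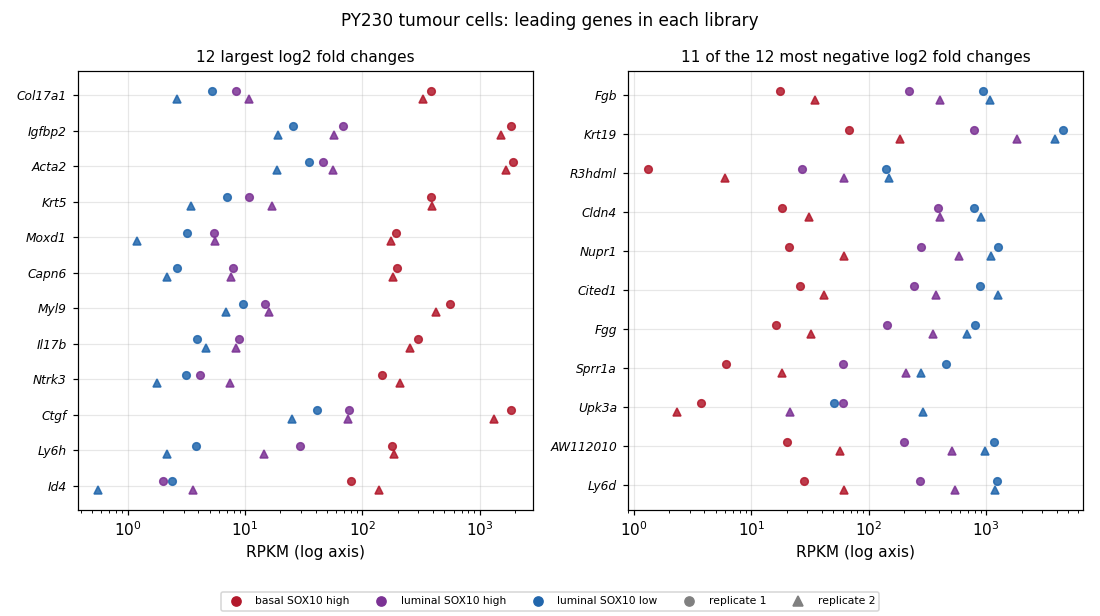
RPKM (log axis) of the 12 genes with the largest and 11 of the 12 with the most negative log2 fold change, in each of the 6 PY230 libraries. Circles are replicate 1, triangles replicate 2; basal SOX10 high libraries stand apart from the 4 luminal ones in the left panel, and in the right panel luminal SOX10 high libraries lie between the ends for all genes shown but Upk3a, where they overlap luminal SOX10 low.

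The counts of each gene list are to be read against the 21.8% of all genes that rose and the 33.4% that fell. In some lists, members reached 1 RPKM in basal SOX10 high libraries alone. These were 2 contractile, 2 cartilage-type, 3 mesenchymal, 3 neural crest, 5 Wnt and 2 basement membrane genes and 2 fibroblast markers. The SOX family, imprinted and endothelial lists had 1 such member each. Another 1 neural crest gene and 1 skin keratinocyte marker reached it in luminal SOX10 low libraries alone. The filter fixed the direction of all these members, so their counts are no support. Of the contractile genes of myoepithelial cells all 14 measured rose in basal SOX10 high cells, against 21.8% of all genes, with a median log2 fold change of 4.79 against -0.16, and 12 to 14 of them were called when any 1 library was left out. Actg2, the other smooth muscle actin gene, had 116 and 85.3 RPKM in basal SOX10 high, against 1.96 and 0.868 in luminal SOX10 low cells. Myh11, the smooth muscle myosin heavy chain gene, had 131 and 78.3 RPKM in basal SOX10 high, against 1.59 and 1.42 in luminal SOX10 low cells. Cnn1, a calponin that binds actin, had 105 and 75.3 RPKM in basal SOX10 high, against 1.95 and 1.08 in luminal SOX10 low cells. None of these 3 overlapped between the ends. The share of all genes tested without overlap was not counted, so lack of overlap, here and at other named genes, only describes their values. Myl9, the regulatory light chain of smooth muscle myosin, had 555 and 427 RPKM in basal SOX10 high, 14.8 and 16.04 in luminal SOX10 high and 9.62 and 6.86 in luminal SOX10 low cells (log2 fold change 5.74 ± 0.19, adjusted p = 2.56e-05). The smallest rises were those of the tropomyosin gene Tpm1 (1.52) and of Cnn2, a calponin gene of wider expression, with 155 and 135 RPKM in basal SOX10 high, 18.1 and 30.5 in luminal SOX10 high and 50.2 and 43.5 in luminal SOX10 low cells (log2 fold change 1.61 ± 0.24, adjusted p = 0.00157). Against luminal SOX10 high cells all 14 rose as well.

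Genes of smooth muscle contraction are known targets of serum response factor, which binds the CArG box. Promoter windows of RefSeq, each 300 bases that reach from upstream of the gene's start to just past it on GRCm38.p6, were found for 11 of the 14 genes (12 windows), and 2 windows held a CArG box, a run of 6 A or T bases between CC and GG, on either strand. That is 16.7% of the windows, against 1.33% of the 12528 windows of the genes tested and 1.63% of all 32851. In the classes described further on, the share at higher genes was 4.78% for those between the ends. It was 2.52% for those apart from basal SOX10 high cells only and 2.42% for those apart from luminal SOX10 low cells only. At lower genes these shares were 0.876%, 0.958% and 1.03%. The share of the contractile genes rests on 2 matches, and none of these differences was tested. Both windows are given 5′ to 3′ because they belong to 2 members of a group that rose together, with the box in capitals. They lie at chr2:156775214-156775513 (Myl9, plus strand) and chr10:79988350-79988649 (Cnn2, plus strand). The windows of Acta2, Cnn1, Mylk, Oxtr, Lmod1, Smtn, Cald1, Tpm1 and Tpm2 held no match to these letters. Actg2, Myh11 and Tagln had no window.
Myl9: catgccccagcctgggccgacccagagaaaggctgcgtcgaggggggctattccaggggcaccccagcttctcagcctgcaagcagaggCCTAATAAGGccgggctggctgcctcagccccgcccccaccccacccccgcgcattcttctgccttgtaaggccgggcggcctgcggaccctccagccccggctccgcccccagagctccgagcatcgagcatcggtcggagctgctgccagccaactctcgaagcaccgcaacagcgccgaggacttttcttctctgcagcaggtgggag
Cnn2: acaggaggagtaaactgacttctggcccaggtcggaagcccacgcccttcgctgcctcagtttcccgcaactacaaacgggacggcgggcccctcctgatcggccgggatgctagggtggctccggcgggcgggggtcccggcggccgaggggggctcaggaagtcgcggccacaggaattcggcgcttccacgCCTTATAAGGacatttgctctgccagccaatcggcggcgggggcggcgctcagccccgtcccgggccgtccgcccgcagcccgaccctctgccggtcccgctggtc
A match to a motif is a description of the sequence, and binding was not measured. SOX factors bind the letters ACAAAG and ACAAT, which share their first 4 bases. Of the 330 windows of higher genes at which luminal SOX10 high cells differed from luminal SOX10 low cells only, described further on, 17.3% held ACAAAG and 23.9% ACAAT on either strand. Of the windows of all genes tested 13.6% and 20.3% held them, and of all 32851 windows 18.7% and 31%, so the class lay between these backgrounds. The share of ACAAAG was 16.6% for higher genes that lay between the ends and 16.7% for genes at which luminal SOX10 high cells were above both ends. It was 14% for lower genes between the ends and 11.8% for lower genes apart from luminal SOX10 low cells only. For genes apart from basal SOX10 high cells only it was 12.2% at higher and 15.8% at lower genes. These differences were not tested.

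Of the basal keratins and regulators 9 of 11 measured rose and 1 fell, with a median log2 fold change of 4.86. Trp63, the p63 factor that basal cells depend on, had 42.9 and 55.4 RPKM in basal SOX10 high, against 1.20 and 1.06 in luminal SOX10 low cells. Irx4, a homeobox factor, had 46.3 and 47.1 RPKM in basal SOX10 high, against 0.791 and 0.513 in luminal SOX10 low cells. Both were near 1 RPKM or below it in luminal SOX10 low cells. The exception was Krt6a, a keratin of stressed epithelium, which fell (log2 fold change -2.88 ± 0.74, adjusted p = 0.0152) and had 13.8 and 16.1 RPKM in basal SOX10 high, 15.4 and 81.6 in luminal SOX10 high and 181 and 74.2 in luminal SOX10 low cells. The call of Krt6a was lost without the first or the second basal SOX10 high library and without the first luminal SOX10 low library. Krt16, its partner in stressed skin, was not called (log2 fold change -0.49 ± 0.49, adjusted p = 0.428).

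Genes of the basement membrane rose for 18 of 22 measured and fell for 2, with a median of 2.27. Col4a1, a chain of collagen IV, had 677 and 655 RPKM in basal SOX10 high, against 19.2 and 10.3 in luminal SOX10 low cells. Lama3, a laminin chain of the epithelial basement membrane, had 108 and 101 RPKM in basal SOX10 high, against 6.25 and 2.38 in luminal SOX10 low cells. Col4a2 (5.44) lies head to head with Col4a1 in the genome and shares its start region. Of the fibrillar collagen and matricellular genes 18 of 26 rose and 1 fell, median 1.88. Sparc, a collagen-binding matricellular protein, had 997 and 744 RPKM in basal SOX10 high, against 61.6 and 32.7 in luminal SOX10 low cells, and Col18a1 (5.20) and Fbln2 (4.01) rose too. Fibroblast markers moved with them: 9 of 14 rose and none fell (median 1.20), and their summed level was 710 and 669 RPKM in basal SOX10 high cells, 143 and 264 RPKM in luminal SOX10 high cells and 181 and 85.5 RPKM in luminal SOX10 low cells. Without the second basal SOX10 high or the second luminal SOX10 low library 3 of them were called. Of these markers Postn, a matricellular protein, had 455 and 272 RPKM in basal SOX10 high, against 43 and 14.8 in luminal SOX10 low cells. The fibroblast-defining receptor gene Pdgfra had 1.29 and 1.18 RPKM in basal SOX10 high, against 0.394 and 0.201 in luminal SOX10 low cells. Col1a1, the main collagen of fibroblasts, had 48.2 and 83.7 RPKM in basal SOX10 high, against 40.1 and 20.3 in luminal SOX10 low cells and was not called (log2 fold change 1.12 ± 0.45, adjusted p = 0.0698). The fat cell gene Fabp4 rose (log2 fold change 4.05 ± 0.51, adjusted p = 0.000766), with 58.1 and 76.1 RPKM in basal SOX10 high, against 6.38 and 1.26 in luminal SOX10 low cells, whereas Adipoq and Plin1, which define fat cells, had at most 0.305 RPKM in any library. Of the endothelial markers 5 of 8 rose and 2 fell, with 2 higher without the second basal SOX10 high or the second luminal SOX10 low library and 3 without the first basal SOX10 high library, and their sum was 18.4 and 22.6 RPKM in basal SOX10 high, 17.0 and 25.3 in luminal SOX10 high and 36.4 and 41.0 in luminal SOX10 low cells. Of 4 skin keratinocyte markers 1 rose and 3 fell, and the red cell marker Alas2 fell. The part of host fibroblasts in these matrix results was not tested. In libraries of sorted cells a lower level can mean fewer cells of a kind or less RNA per cell, and these cannot be told apart.

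Luminal keratins and epithelial identity genes fell for 23 of 27 measured and rose for 1, with a median of -3.10. Krt7, a luminal keratin, had 25.5 and 48.5 RPKM in basal SOX10 high, against 952 and 903 in luminal SOX10 low cells. Cldn3, a tight junction protein, had 15.1 and 17.6 RPKM in basal SOX10 high, 337 and 221 in luminal SOX10 high and 225 and 259 in luminal SOX10 low cells. It fell between the ends (log2 fold change -3.81 ± 0.22, adjusted p = 4.41e-05) and its luminal SOX10 high libraries spanned the luminal SOX10 low ones. Cdh1, the cell adhesion protein E-cadherin, fell less far (log2 fold change -1.86 ± 0.16, adjusted p = 0.000149), with 77.3 and 63.6 RPKM in basal SOX10 high, against 245 and 269 in luminal SOX10 low cells, so basal SOX10 high cells still had both it and Epcam.

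Hormone-sensing luminal genes all fell: 11 of 11 measured, against 33.4% of all genes, with a median of -3.55, and 11 were called whichever library was left out. Foxa1, a pioneer factor that opens chromatin for the oestrogen receptor, had 9.96 and 12.2 RPKM in basal SOX10 high, 27.7 and 59.9 in luminal SOX10 high and 132 and 149 in luminal SOX10 low cells (log2 fold change -3.55 ± 0.33, adjusted p = 0.00022). Esr1, the oestrogen receptor gene, had 0.697 and 1.48 RPKM in basal SOX10 high, 3.08 and 10.6 in luminal SOX10 high and 22.5 and 14.1 in luminal SOX10 low cells (log2 fold change -3.20 ± 0.49, adjusted p = 0.00174). Prlr, the prolactin receptor gene, had 7.92 and 18.2 RPKM in basal SOX10 high, 56.7 and 139.6 in luminal SOX10 high and 215 and 249 in luminal SOX10 low cells, and Areg, an EGF receptor ligand made in response to oestrogen, had 7.71 and 21.5 RPKM in basal SOX10 high, 64.03 and 237 in luminal SOX10 high and 547 and 276 in luminal SOX10 low cells. In all 4 the ends were apart, and the second luminal SOX10 high library lay above the first. Ly6a, which encodes the surface protein SCA1, fell as well (-4.66).

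**Figure D2:**
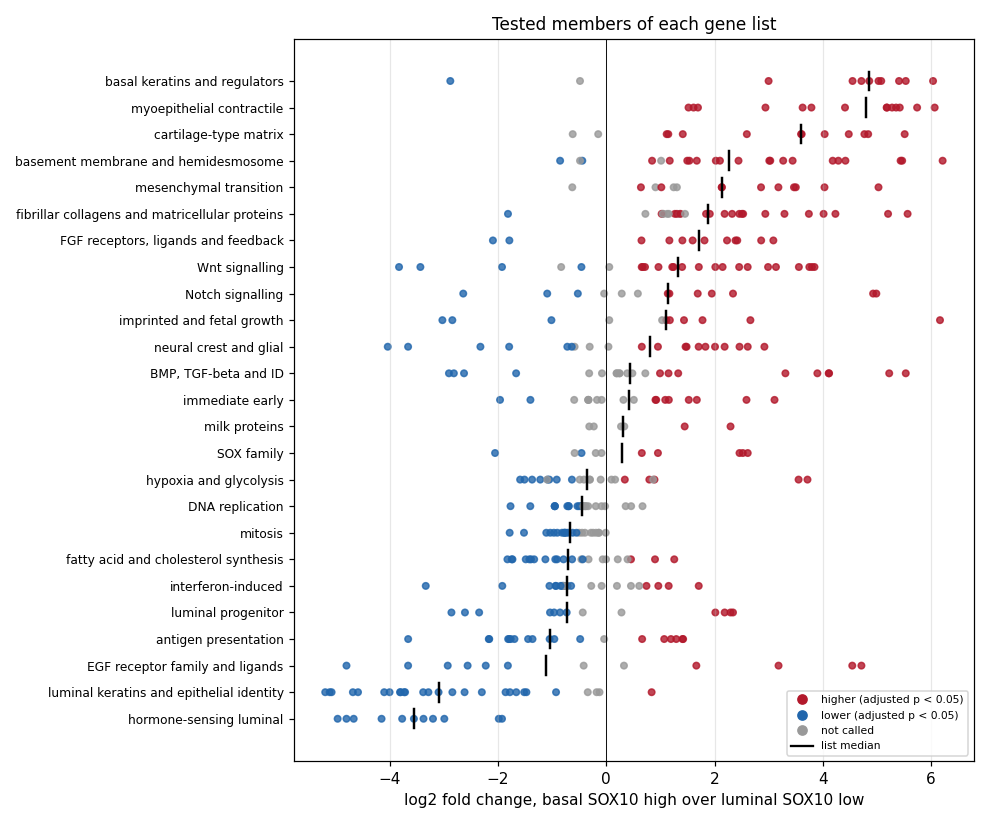
Log2 fold change of basal SOX10 high over luminal SOX10 low cells for the tested members of 25 gene lists, ordered by median (black bar). Red points rose, blue points fell and grey points were not called; basal, contractile and matrix lists lie at the top and hormone-sensing and luminal lists at the bottom.

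Signalling genes split by member. Wnt genes rose for 18 of 24 and fell for 4 (median 1.32), and 11 rose when either basal SOX10 high library was left out. The ligand gene Wnt6 had 17.5 and 18.7 RPKM in basal SOX10 high, against 0.437 and 0.226 in luminal SOX10 low cells, whereas the ligand gene Wnt7b ran the other way with 1.56 and 2.19 RPKM in basal SOX10 high, against 38.7 and 40.4 in luminal SOX10 low cells, and Wnt5a fell too (-3.43). Wnt6 passed the filter through basal SOX10 high libraries alone, so the filter fixed its direction. The feedback inhibitor gene Nkd2 rose (3.80). Of the FGF genes 10 of 12 rose and 2 fell (median 1.70): the ligand gene Fgf1 (2.86), the target gene Etv5 (3.09) and the feedback genes Spry2 (2.42) and Dusp6 (2.39) rose, and the receptor gene Fgfr2 fell, with 33.5 and 39.1 RPKM in basal SOX10 high, against 152 and 164 in luminal SOX10 low cells, while the receptor gene Fgfr1 rose with 178 and 153 RPKM in basal SOX10 high, against 49.8 and 58.5 in luminal SOX10 low cells. The receptors therefore moved in opposite directions.

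Of the Notch genes 7 of 13 rose and 3 fell (median 1.14). The ligand genes Dll1 and Jag2 rose most. Dll1 had 55.2 and 44.2 RPKM in basal SOX10 high, 2.20 and 1.45 in luminal SOX10 high and 0.747 and 0.448 in luminal SOX10 low cells and Jag2 64.5 and 80.4 RPKM in basal SOX10 high, 1.79 and 2.78 in luminal SOX10 high and 1.59 and 1.22 in luminal SOX10 low cells, so both were low in each luminal library. The receptor gene Notch3 fell (log2 fold change -2.64 ± 0.22, adjusted p = 0.00014), with 3.42 and 5.74 RPKM in basal SOX10 high, 24.1 and 28.3 in luminal SOX10 high and 30.7 and 35.6 in luminal SOX10 low cells, while the receptor gene Notch1 rose (log2 fold change 1.95 ± 0.22, adjusted p = 0.000461) with 34.2 and 36.1 RPKM in basal SOX10 high, 30.5 and 20.7 in luminal SOX10 high and 7.12 and 9.79 in luminal SOX10 low cells. The target gene Hey1 had 34.5 and 38.6 RPKM in basal SOX10 high, 54.7 and 35.3 in luminal SOX10 high and 6.49 and 6.33 in luminal SOX10 low cells. In both genes the luminal SOX10 high libraries lay far above the luminal SOX10 low ones.

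In the EGF family 4 of 12 genes rose and 6 fell (median -1.12). The receptor gene Egfr had 18.9 and 15.5 RPKM in basal SOX10 high, 9.24 and 7.06 in luminal SOX10 high and 1.04 and 0.964 in luminal SOX10 low cells (log2 fold change 3.18 ± 0.18, adjusted p = 4.23e-05), and the receptor gene Erbb3 had 3.25 and 3.99 RPKM in basal SOX10 high, 34 and 45.9 in luminal SOX10 high and 52.4 and 62.3 in luminal SOX10 low cells (log2 fold change -3.66 ± 0.19, adjusted p = 3.58e-05). Egfr was thus highest in the fraction in which Erbb3, the partner of ERBB2, was lowest. The neuregulin ligand genes Nrg1 (4.71) and Nrg2 (4.54) rose, and Areg fell. Of the BMP, TGF-beta and ID genes 9 of 22 rose and 4 fell (median 0.43), among them Bmp7 (4.11), the activin antagonist gene Fst (5.22) and the co-receptor gene Tgfbr3 (4.11), all higher.

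Since SOX10 is best known from the neural crest, the genes of that lineage were listed too. Of 20 measured 11 rose and 6 fell, with a median of 0.80. The surface protein gene Ncam1 had 8.68 and 10.6 RPKM in basal SOX10 high, 1.65 and 1.96 in luminal SOX10 high and 0.479 and 0.324 in luminal SOX10 low cells, and Sox8, of the same SOX subgroup as Sox10, had 7.31 and 6.996 RPKM in basal SOX10 high, 4.37 and 3.35 in luminal SOX10 high and 0.334 and 0.333 in luminal SOX10 low cells. Both rose (2.92 and 2.61), while the crest factor gene Tfap2b and Erbb3 fell (-4.04 and -3.66), so the list did not move 1 way. Foxd3 and Dct, which mark early crest and pigment cells, were at or below 0.018 RPKM in all 6 libraries, and 5 genes of the list rose without the first basal SOX10 high library and 6 without the second. Within the SOX family 5 of 10 rose and 2 fell, with 2 higher when either basal SOX10 high library was left out and 3 when either luminal SOX10 low library was. Without the first basal SOX10 high library 3 fell, and without the second, or without either luminal SOX10 low library, 1 fell. Sox2 had 3.78 and 6.63 RPKM in basal SOX10 high, 0.508 and 0.428 in luminal SOX10 high and 0.142 and 0.054 in luminal SOX10 low cells (log2 fold change 2.46 ± 0.24, adjusted p = 0.00028). It passed the filter through basal SOX10 high libraries alone, so the filter fixed its direction. Sox9, a factor of cartilage and of many epithelia, was not called (log2 fold change -0.59 ± 0.25, adjusted p = 0.0914).

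Mesenchymal transition genes rose for 10 of 14 and fell for none (median 2.13), 6 without the second basal SOX10 high library. Snai2, a factor of basal and mesenchymal cells, had 54.8 and 41.2 RPKM in basal SOX10 high, 2.07 and 1.65 in luminal SOX10 high and 0.798 and 0.232 in luminal SOX10 low cells. Twist1, a factor of mesenchymal cells, had 27.4 and 30.5 RPKM in basal SOX10 high, 11.2 and 6.09 in luminal SOX10 high and 0.769 and 0.900 in luminal SOX10 low cells, and luminal SOX10 high cells lay clearly between the ends. Vim, the intermediate filament of mesenchymal cells, had 196 and 193 RPKM in basal SOX10 high, 29.7 and 54.7 in luminal SOX10 high and 31.2 and 13.5 in luminal SOX10 low cells (log2 fold change 3.18 ± 0.41, adjusted p = 0.000826). Cdh2, the adhesion protein N-cadherin, had 13.2 and 11.2 RPKM in basal SOX10 high, against 0.197 and 0.138 in luminal SOX10 low cells, whereas Zeb1 and Zeb2 had at most 0.884 RPKM in any library. Cdh2 passed the filter through basal SOX10 high libraries alone, so the filter fixed its direction. Fn1, which fibroblasts also make, was not called (adjusted p = 0.0779).

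Cartilage-type matrix genes rose for 11 of 13 and fell for none, with a median of 3.60, and 7 rose without the first basal SOX10 high library. Col9a3, a chain of collagen IX, had 198 and 176 RPKM in basal SOX10 high, 72.8 and 39.4 in luminal SOX10 high and 5 and 6.20 in luminal SOX10 low cells (log2 fold change 4.84 ± 0.28, adjusted p = 4.4e-05). Scrg1 had 49.04 and 52.4 RPKM in basal SOX10 high, 21.6 and 11.8 in luminal SOX10 high and 0.936 and 0.862 in luminal SOX10 low cells. In both, luminal SOX10 high cells were above luminal SOX10 low and below basal SOX10 high cells without overlap. Matn2, a matrilin of wider expression than cartilage, had 106 and 136 RPKM in basal SOX10 high, 4.34 and 4.86 in luminal SOX10 high and 2.06 and 1.31 in luminal SOX10 low cells, low in each luminal library. Acan, Matn1 and Hapln1, which define cartilage, had at most 0.374 RPKM in any library, and Col2a1 had 1.89 and 1.36 RPKM in basal SOX10 high, 3.31 and 0.799 in luminal SOX10 high and 0.062 and 0.314 in luminal SOX10 low cells.

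Mitosis genes fell for 13 of 22 and rose for none (median -0.66), and DNA replication genes fell for 11 of 23 and rose for none (median -0.45), where 33.4% of all genes fell. The others of both lists, 9 and 12 genes, were not called. With median-of-ratios factors the counts were 12 mitosis genes lower and none higher, and 7 replication genes lower and 2 higher, where 27.3% of all genes were lower. Replication genes fell for 6 without the first basal SOX10 high library, where 26% of all genes fell, and for 7 without the second. They fell for 7 without the first and for 6 without the second luminal SOX10 low library, so the count of replication genes was near the general share in some of these fits. Aurka, a mitotic kinase, had 5.05 and 6.98 RPKM in basal SOX10 high, 13.2 and 15.3 in luminal SOX10 high and 23.8 and 22.1 in luminal SOX10 low cells (log2 fold change -1.78 ± 0.17, adjusted p = 0.00025). Mcm6, a subunit of the replicative helicase, had 23.96 and 28.4 RPKM in basal SOX10 high, 73.1 and 67.1 in luminal SOX10 high and 87.4 and 95.4 in luminal SOX10 low cells (log2 fold change -1.77 ± 0.14, adjusted p = 0.000113). Mki67, the usual proliferation marker, was not called between the ends (log2 fold change -0.24 ± 0.15, adjusted p = 0.206), with 24.1 and 24.9 RPKM in basal SOX10 high, against 26.01 and 32.8 in luminal SOX10 low cells.

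Antigen presentation genes fell for 12 of 19 and rose for 6 (median -1.05). The 3 inducible subunits of the immunoproteasome fell together: Psmb8 had 64.01 and 52.99 RPKM in basal SOX10 high, against 267 and 261 in luminal SOX10 low cells, Psmb9 27.4 and 31.6 RPKM in basal SOX10 high, against 137 and 135 in luminal SOX10 low cells and Psmb10 13.7 and 9.52 RPKM in basal SOX10 high, against 42.4 and 42.9 in luminal SOX10 low cells. H2-Q6 fell as well (-3.66), though reads of the near-identical H2-Q genes may have been split between copies. Cd74, the invariant chain of class II, rose (log2 fold change 1.42 ± 0.22, adjusted p = 0.00168), with 97.1 and 80.6 RPKM in basal SOX10 high, 90.7 and 90.96 in luminal SOX10 high and 40.4 and 26.1 in luminal SOX10 low cells, and is also a gene of immune cells. Immune markers rose for 7 of 11 and fell for none (median 0.94), 2 without the second basal SOX10 high or the second luminal SOX10 low library, and their sum was 95.3 and 137 RPKM in basal SOX10 high cells, 107 and 149 RPKM in luminal SOX10 high cells and 67.5 and 39.5 RPKM in luminal SOX10 low cells. Ptprc, which defines leucocytes, was between 0.181 and 1.02 RPKM in the 6 libraries. The part of immune cells in the class II values was not tested. Interferon-induced genes fell for 11 of 22 and rose for 4 (median -0.72), where 33.4% of all genes fell and 21.8% rose. Without the second basal SOX10 high library 6 fell, near the 27.6% of all genes that fell in that fit. Of the list 1 rose without the first basal SOX10 high or the first luminal SOX10 low library, and 2 rose without the second luminal SOX10 low library. Among those that fell was Oas2, a sensor of double-stranded RNA, with 2.10 and 2.94 RPKM in basal SOX10 high, 18.2 and 24.3 in luminal SOX10 high and 32.1 and 36.5 in luminal SOX10 low cells.

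Fatty acid and cholesterol synthesis genes fell for 13 of 22 and rose for 3 (median -0.71), with the cholesterol enzyme gene Hmgcs1 at 38.6 and 34.6 RPKM in basal SOX10 high, against 142 and 123 in luminal SOX10 low cells. Hypoxia and glycolysis genes rose for 5 and fell for 8 of 22, shares near those of all genes, and 3 rose without the second luminal SOX10 low library. The carbonic anhydrase gene Car9, a marker of hypoxia, had 90.5 and 118 RPKM in basal SOX10 high, 73.2 and 52.7 in luminal SOX10 high and 9.67 and 6.43 in luminal SOX10 low cells, and Egln3, an oxygen sensor of the HIF pathway, rose with it (3.72). The glycolytic enzyme genes Pkm (-1.59) and Tpi1 (-1.51) fell, so members of the list moved in both directions. Of the immediate early genes 8 of 18 rose and 2 fell, with 5 higher without the first luminal SOX10 low library and 4 lower without either luminal SOX10 high library. Egr2 (3.11) and Egr3 (2.59) rose and Atf3 fell (-1.96). Of the imprinted and fetal growth genes 6 of 11 rose and 3 fell. Peg3 had 12.99 and 9.94 RPKM in basal SOX10 high, against 1.23 and 0.714 in luminal SOX10 low cells, while H19 fell with 14.6 and 34.3 RPKM in basal SOX10 high, against 241 and 150.5 in luminal SOX10 low cells, which may include reads of the microRNA gene that it hosts. Igf2bp2 fell too (-2.84).

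The position of luminal SOX10 high cells was asked at the 3802 genes that were called between the ends with an absolute log2 fold change of at least 1. The position is the difference of luminal SOX10 high from luminal SOX10 low cells divided by that of basal SOX10 high from luminal SOX10 low cells, so that 0 is the level of luminal SOX10 low and 1 that of basal SOX10 high cells. On the log2 scale its median was 0.36 (quartiles 0.15 and 0.55), 0.40 for the first luminal SOX10 high library and 0.29 for the second. At 1158 of the genes (30.5%) luminal SOX10 high cells lay nearer to basal SOX10 high cells. The same luminal SOX10 low libraries enter both parts of the ratio, so it is given as a description.

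The position depended on direction and scale. At the 1754 higher genes the median position was 0.31 on the log2 scale and 0.18 on the linear RPKM scale, and 25.6% lay nearer to basal SOX10 high cells on the linear scale. At the 2048 lower genes it was 0.37 on the log2 scale but 0.53 on the linear scale, 0.59 for the first luminal SOX10 high library and 0.46 for the second, and 53.2% lay nearer to basal SOX10 high cells on the linear scale, against 26.4% on the log2 scale. As a share of the mean of the higher end, the higher genes had medians of 102% and 97.8% in basal SOX10 high, 35.5% and 31.6% in luminal SOX10 high and 16.0% and 14.4% in luminal SOX10 low libraries. The lower genes had medians of 24.0% and 25.4% in basal SOX10 high, 58.1% and 67.0% in luminal SOX10 high and 97.9% and 102% in luminal SOX10 low libraries. By these shares luminal SOX10 high cells lay nearer to luminal SOX10 low cells at the higher genes and close to midway at the lower ones.

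**Figure D3:**
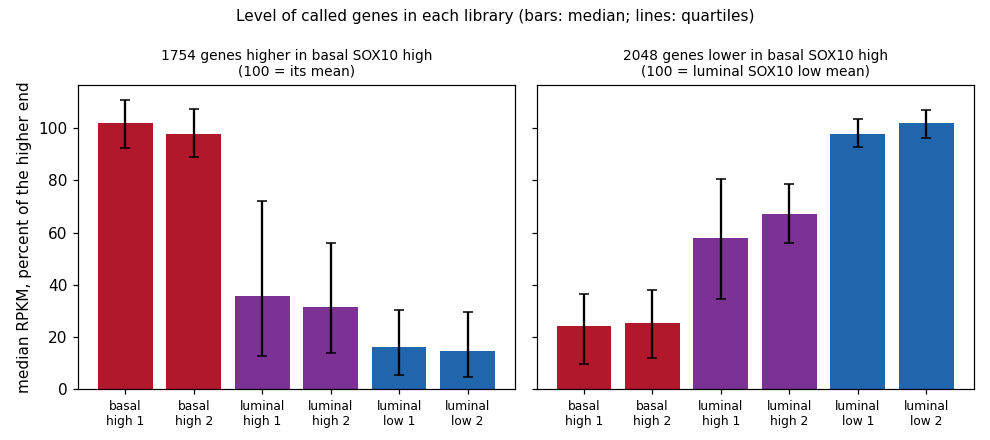
Median RPKM of the 1754 higher and the 2048 lower genes in each library, as a percent of the mean of the end where they are higher (bars, with quartiles as lines). Luminal SOX10 high libraries lie at 35.5% and 31.6% in the left panel and at 58.1% and 67.0% in the right panel.

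The genes with the largest differences behaved differently on the sides. At the 107 genes with a log2 fold change of at least 4, luminal SOX10 high libraries had medians of 5.29% and 5.61% of the basal SOX10 high level, and luminal SOX10 low cells 2.35%. At the 56 genes with a log2 fold change of -4 or less, basal SOX10 high cells had a median of 3.75% of the luminal SOX10 low level, the first luminal SOX10 high library 21.1% (quartiles 18.7% and 27.1%) and the second 47.0% (quartiles 43.2% and 53.4%). The quartiles of the 2 libraries did not meet, and within a library these genes lay at much the same share of the luminal SOX10 low level. In that set the log2 fold change of luminal SOX10 high over luminal SOX10 low cells ran from -1.80 to -0.26. The basal SOX10 high libraries differed in these genes as well, with a median of 2.26% (quartiles 1.87% and 3%) of the luminal SOX10 low level in the first and 5.25% (quartiles 4.47% and 6.11%) in the second. The part that luminal SOX10 low cells carried into the other sorted fractions have in these values, and in the position of luminal SOX10 high cells at the lower genes, was not tested.

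By the tests against each end, luminal SOX10 high cells differed from basal SOX10 high cells only at 1800 of the 3802 genes (47.3%; 857 higher and 943 lower in basal SOX10 high cells), from luminal SOX10 low cells only at 595 (15.6%; 386 and 209) and from both while lying between them at 1037 (27.3%; 360 and 677). They differed from neither at 257 (6.76%) and lay outside both ends at 113 (2.97%). A gene that was called against 1 end and not the other is not shown to be equal to the other, and the contrasts share libraries. The background is that 22.6% of all genes were called between luminal SOX10 high and luminal SOX10 low cells and 42% between basal SOX10 high and luminal SOX10 high cells. The counts also depended on single libraries: without the second luminal SOX10 low library 109 genes were between and 173 differed from luminal SOX10 low cells only. Without the first luminal SOX10 low library these counts were 255 and 290, and without the first luminal SOX10 high library 358 and 221. The between count was 553 without the first and 634 without the second basal SOX10 high library, and 850 without the second luminal SOX10 high library.

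**Figure D4:**
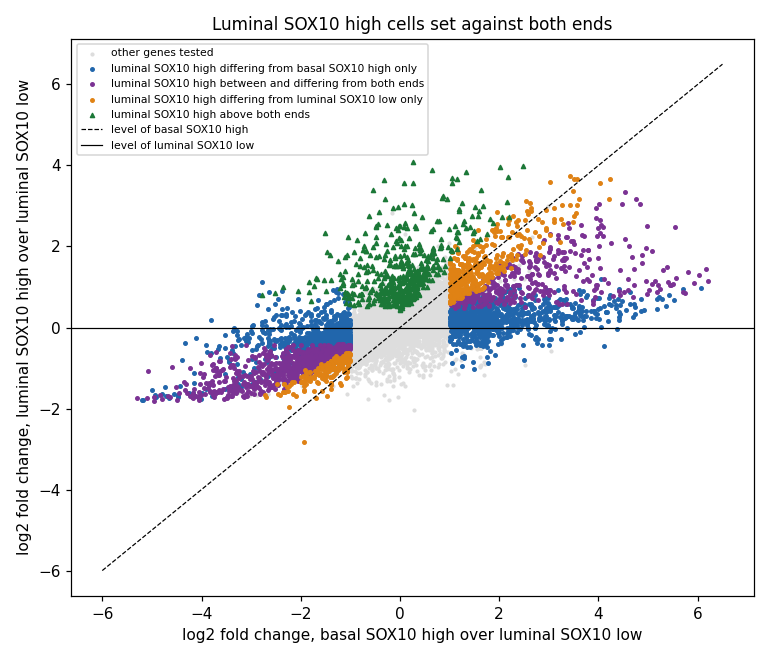
Log2 fold change of luminal SOX10 high over luminal SOX10 low cells (vertical) against that of basal SOX10 high over luminal SOX10 low cells (horizontal) for 13136 genes. On the solid line luminal SOX10 high cells have the luminal SOX10 low level and on the dashed line the basal SOX10 high level. The 56 called genes at -4 or less on the horizontal axis run from -1.80 to -0.26 on the vertical one. The 107 called genes at 4 or more have a median position of 0.19 on the log2 scale. Green triangles mark the 477 genes above both ends.

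Genes at which luminal SOX10 high cells differed from luminal SOX10 low cells only included cartilage-type collagens. Car2, a carbonic anhydrase, led them with 76.8 and 79.8 RPKM in basal SOX10 high, 74.1 and 37.1 in luminal SOX10 high and 2.67 and 3.89 in luminal SOX10 low cells. It rose between the ends (log2 fold change 4.23 ± 0.31, adjusted p = 9.4e-05) and in luminal SOX10 high over luminal SOX10 low cells (log2 fold change 3.66 ± 0.31, adjusted p = 0.00228), and the second luminal SOX10 high library was well below the first. Col9a1, a chain of collagen IX, had 55.98 and 58.2 RPKM in basal SOX10 high, 58.9 and 28.8 in luminal SOX10 high and 2.65 and 2.46 in luminal SOX10 low cells, with a position of 0.89 on the log2 scale. Col11a1, a chain of collagen XI, had 55.5 and 42.9 RPKM in basal SOX10 high, 41.01 and 30.9 in luminal SOX10 high and 3.05 and 3.12 in luminal SOX10 low cells. The luminal SOX10 high libraries were above luminal SOX10 low ones in all 3 genes. Fabp5, a fatty acid carrier, had 77.1 and 117 RPKM in basal SOX10 high, 65.6 and 31.4 in luminal SOX10 high and 3.87 and 4.51 in luminal SOX10 low cells, and Stac2 had 90.3 and 63.5 RPKM in basal SOX10 high, 99.6 and 64.4 in luminal SOX10 high and 5.34 and 5.52 in luminal SOX10 low cells, where luminal and basal SOX10 high libraries overlapped.

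The gene lists differed in where luminal SOX10 high cells lay. The median position of the called members past the fold threshold was 0.10 on the log2 and 0.02 on the linear scale for basement membrane genes. It was 0.14 and 0.01 for contractile genes, and larger for basal keratins and regulators (0.20 and 0.03), luminal identity genes (0.21 and 0.37), FGF genes (0.46 and 0.36) and cartilage-type matrix genes (0.66 and 0.32). Of the contractile genes 3 rose and 1 fell in luminal SOX10 high over luminal SOX10 low cells, and of the cartilage-type matrix genes 8 rose and none fell, where 12.6% of all genes rose and 10% fell; between basal and luminal SOX10 high cells 13.8% rose and 28.2% fell. Hormone-sensing genes had a position of 0.37 on the log2 scale and 0.67 on the linear scale, and 6 of 11 fell in luminal SOX10 high cells. Whether these lists differ in position was not tested.

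Some genes did not lie between the ends. Luminal SOX10 high cells were above both ends, with both tests passed, at 477 genes (3.63%) and below both at 138 (1.05%). Of these, 326 and 77 were not called between the ends at all (2.48% and 0.586%). The count above both was 155 without the first luminal SOX10 high library and 925 without the second. It was 267 and 256 without the first and the second basal SOX10 high library, and 178 and 164 without the first and the second luminal SOX10 low library. Of the 477, 64 reached 1 RPKM in luminal SOX10 high libraries alone, so the filter fixed their direction. Luminal progenitor genes, none of which passed in that way, were among the 477: 8 of 13 were above both ends, against 3.63% of all genes. Elf5, the factor of the alveolar lineage, had 14.9 and 23.2 RPKM in basal SOX10 high, 129 and 101 in luminal SOX10 high and 17.5 and 13.1 in luminal SOX10 low cells. Kit, a receptor of luminal progenitors, had 4.14 and 4.41 RPKM in basal SOX10 high, 63.3 and 39.6 in luminal SOX10 high and 11.1 and 8.71 in luminal SOX10 low cells. Both luminal SOX10 high libraries were above all 4 libraries of the ends. Lcn2, a lipocalin secreted by luminal cells, had 1614 and 973 RPKM in basal SOX10 high, 5255 and 2508 in luminal SOX10 high and 248 and 304 in luminal SOX10 low cells and was the gene with the largest RPKM in both luminal SOX10 high libraries. Cd14, a co-receptor for bacterial products used to mark luminal progenitors, had 19.9 and 23.3 RPKM in basal SOX10 high, 189 and 119 in luminal SOX10 high and 41.6 and 31.8 in luminal SOX10 low cells. Both Lcn2 and Cd14 are also genes of myeloid cells, whose summed markers are given above, and the part of immune cells in their values was not tested. The other members above both were Tspan8, Sorbs2, Slc34a2 and Atp6v1c2. Between the ends, in contrast, the list rose for 4 and fell for 7 genes, with Ltf (-2.61) and Aldh1a3 (-2.35) lower and Hey1 (2.34) higher. Aldh1a3, Basp1 and Ltf were not above both ends. In luminal SOX10 high cells Aldh1a3 had 3.26 and 7.09 RPKM, against 12.9 and 9.93 in luminal SOX10 low cells. Basp1 had 70.4 and 133 RPKM against 220 and 169, and Ltf 14.2 and 9.98 against 14.2 and 23.3. None of these was called between the luminal fractions.

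Of 11 milk genes listed 6 passed the filter, and 5 of these were above both ends. Of the 5, Wap and Btn1a1 reached 1 RPKM in luminal SOX10 high libraries alone, so for them the filter fixed the direction, and the count is no support. Csn3, kappa-casein, had 76.3 and 42.6 RPKM in basal SOX10 high, 1443 and 567 in luminal SOX10 high and 60.3 and 84.04 in luminal SOX10 low cells. Lalba, alpha-lactalbumin, had 4.51 and 2.75 RPKM in basal SOX10 high, 118 and 33.8 in luminal SOX10 high and 1.72 and 4.21 in luminal SOX10 low cells. The first luminal SOX10 high library was more than 2-fold above the second in both, and each was far above the ends, which overlapped. Wap, whey acidic protein, had 0.411 and 0.225 RPKM in basal SOX10 high, 4.91 and 4.62 in luminal SOX10 high and 0.090 and 0 in luminal SOX10 low cells. Csn2, the most abundant casein of milk, was at or below 0.117 RPKM in all 6 libraries and did not pass the filter. Mfge8, a milk fat globule protein, was instead highest in basal SOX10 high cells (log2 fold change 2.29 ± 0.22, adjusted p = 0.000231), with 800 and 575 RPKM in basal SOX10 high, 135 and 149 in luminal SOX10 high and 156 and 121 in luminal SOX10 low cells.

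**Figure D5:**
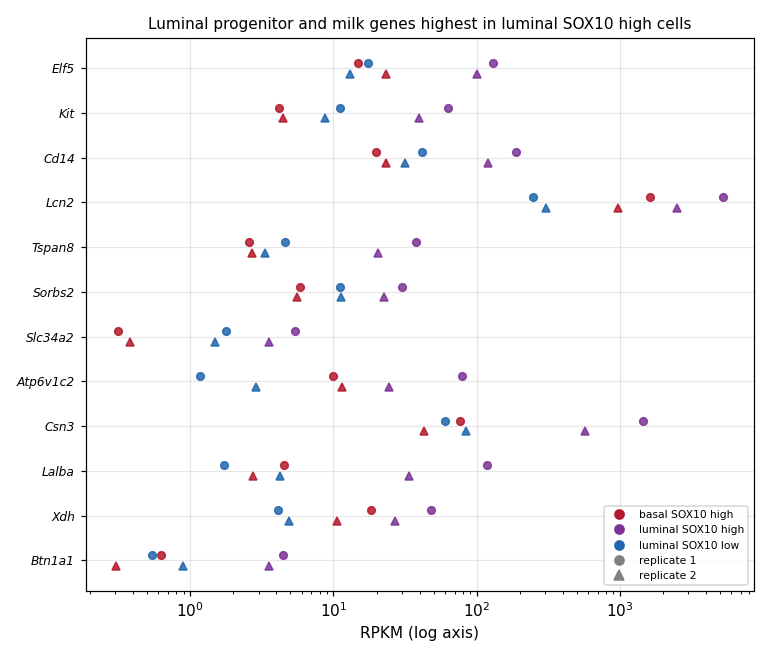
RPKM (log axis) of 12 luminal progenitor and milk genes in each of the 6 PY230 libraries, with circles for replicate 1 and triangles for replicate 2. The genes were picked because luminal SOX10 high cells were above both ends, so that luminal SOX10 high libraries lie to the right follows from the choice. Other members of the lists, such as Aldh1a3, Ltf and Mfge8, are not shown. In each gene shown the first luminal SOX10 high library lies to the right of the second.

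Beyond these lists, genes well above both ends, picked after their values were seen, included the retinoid binding protein genes Crabp2, with 17.7 and 16.02 RPKM in basal SOX10 high, 263 and 151 in luminal SOX10 high and 15.9 and 15.7 in luminal SOX10 low cells, and Rbp7, with 13.5 and 12.04 RPKM in basal SOX10 high, 174 and 103 in luminal SOX10 high and 9.70 and 11.2 in luminal SOX10 low cells. The potassium channel gene Kcnn4 had 4.44 and 4.38 RPKM in basal SOX10 high, 112 and 59.1 in luminal SOX10 high and 6.30 and 7.42 in luminal SOX10 low cells. In all 3 both luminal SOX10 high libraries were far above the 4 libraries of the ends, which for Kcnn4 did not overlap but were not called apart. Foxi1, a factor of proton-secreting cells in kidney and inner ear, had 1.91 and 1.33 RPKM in basal SOX10 high, 36.9 and 18.6 in luminal SOX10 high and 2.83 and 3.26 in luminal SOX10 low cells, and Atp6v1b1, a subunit of the proton pump that FOXI1 is known to regulate there, had 8.26 and 5.45 RPKM in basal SOX10 high, 155 and 79.1 in luminal SOX10 high and 19.8 and 22.5 in luminal SOX10 low cells. Trf, the iron carrier transferrin, had 494 and 248 RPKM in basal SOX10 high, 1479 and 659 in luminal SOX10 high and 57.4 and 66.6 in luminal SOX10 low cells. Of the genes that were below both ends, Crispld2 had 123 and 116 RPKM in basal SOX10 high, 8.28 and 9.45 in luminal SOX10 high and 11.97 and 15.5 in luminal SOX10 low cells and the caveolin gene Cav1 108 and 92.2 RPKM in basal SOX10 high, 6.25 and 10.7 in luminal SOX10 high and 16.1 and 16.97 in luminal SOX10 low cells, both highest in basal SOX10 high cells by far.

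The normal table gave a comparison that shares no library with the tumour cells. Of the 1754 genes higher in basal SOX10 high cells, 1371 were tested there, and 709 of them (51.7%) were higher and 99 (7.22%) lower in adult basal cells than in luminal progenitors, against 21% and 14.5% of all 12553 genes tested there. Against mature luminal cells 958 (69.9%) were higher and 23 (1.68%) lower, against 28.8% and 19.8%. Of the 2048 lower genes 1755 were tested, and 968 (55.2%) were lower and 79 (4.50%) higher in adult basal than in mature luminal cells, and 485 (27.6%) lower and 128 (7.29%) higher than in luminal progenitors. Across the 3126 genes of the tumour set tested in both, the log2 fold changes of the ends had a Pearson r of 0.78 with those of adult basal over mature luminal cells and 0.58 with those over luminal progenitors. Both are given as a description, since genes are not independent and the 2 normal contrasts share the basal libraries. These genes were chosen for large changes between the ends, which can raise r, and r over all shared genes was not computed. Krt14 had 1213 and 532 RPKM in adult basal cells, against 1.96 and 4.98 in luminal progenitors and 3.29 and 2.26 in mature luminal cells, so the normal basal libraries were highest.

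The genes at which luminal SOX10 high cells lay above both ends were also looked up there. Of the 477, 374 were tested in the normal table, and in 109 (29.1%) normal luminal progenitors were above both adult basal and mature luminal cells with both tests passed, against 4.26% of the 11315 genes tested in both tables. These 109 are 22.6% of the 482 normal genes of that kind. Genes that reached 1 RPKM in luminal SOX10 high libraries alone, whose direction the filter fixed, were not taken out of the 374. Genes that passed the filter of the normal table through luminal progenitors alone were not counted. These shares are therefore given as a description. Csn3 had 2966 and 3388 RPKM in luminal progenitors, 29.1 and 28.99 in adult basal and 39.3 and 83.8 in mature luminal cells. Foxi1 had 14.6 and 6.28 RPKM in luminal progenitors, 0 and 0.208 in adult basal and 0 and 0.256 in mature luminal cells. Atp6v1b1 had 21.6 and 9.64 RPKM in luminal progenitors, 0.188 and 0.436 in adult basal and 0.325 and 0.672 in mature luminal cells. In all 3 genes both luminal progenitor libraries were above the other normal adult ones. Normal fetal cells had no part in that count. They had 846 and 856 RPKM of Csn3, 1.03 and 0.676 of Foxi1 and 1.76 and 2.44 of Atp6v1b1. In all 3 genes they lay below luminal progenitors but above adult basal and mature luminal cells. Kcnn4 had 64.2 and 61.7 RPKM in fetal cells, against 47.8 and 62.6 in luminal progenitors. Car2, which in the tumour cells was also high in basal SOX10 high cells, had 241 and 185 RPKM in luminal progenitors, 0.540 and 1.51 in adult basal and 0.912 and 2.27 in mature luminal cells, so there the normal basal cells were at the low level.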

How the data were processed

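PY230 fractions were profiled by full-length, polyA-selected RNA-seq without molecular identifiers, per the labels' protocols, and no strand is stated, so reads of overlapping or antisense genes cannot be told apart. The authors deposited RPKM per gene and library. FastQC, HISAT2 2.0.5, StringTie 1.3.1c and the build mm9 are named in the submitters' processing notes, and the annotation is not given in the sources used here. RPKM hold no read counts, so no interval of counting error is given, and the number of libraries limits the precision.

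Genes with at least 1 RPKM in at least 2 of the 6 libraries entered 1 limma 3.58.1 fit (R 4.3.3) on log2(RPKM + 1), with 3 groups, an intensity trend and no replicate block. Tests were two-sided, with Benjamini-Hochberg adjustment over all 13136 genes and a threshold of 0.05. The pseudocount makes fold changes of low genes too small. The fit leaves 3 residual degrees of freedom, and no 2 columns were identical. The fit was tested on simulated data. The normal table was fitted in the same way with 4 groups, a comparison added after the data were seen. The design fixed only the PY230 fits.

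The genes named are Sox10, the 12 largest and the 12 most negative log2 fold changes (mean of the higher end at least 5 RPKM, ends not overlapping), up to 4 members of each list by size of change, 5 genes of each class of position, and keratins and Epcam. A gene that this rule names is not reported here. Other genes were named after their values were seen, for their known roles. The comparison and the lists were chosen with earlier results of these data known, so the lists are described by counts and medians without a test. Promoter windows were matched by symbol for 9800 of the 13136 genes. The other tumour model of the series was not analysed here.

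Alternatives were the pseudocount, the filter, the scaling, the trend, the 4 libraries of the ends alone, the replicate block and each library left out. Whether replicate numbers pair the samples is not stated in the labels, and a correlation of deviations cannot settle it. The deviations of same-numbered libraries from their group means had a correlation over genes of -0.20 between basal SOX10 high and luminal SOX10 low. It was 0.30 between basal SOX10 high and luminal SOX10 high and -0.26 between luminal SOX10 high and luminal SOX10 low.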

Additional observations from a re-analysis of the deposited data

How the results depend on the processing

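Over all alternatives 5042 to 8347 genes were called between the ends. With a pseudocount of 5 RPKM 2038 genes had an absolute log2 fold change of at least 1, and luminal SOX10 high cells differed from luminal SOX10 low only at 260 and from basal SOX10 high only at 852 of them. With no filter except a value above 0 they were between and apart from both ends at 535. With each library left out in turn the calls ran from 5042 to 7794, the higher genes from 1860 to 3058, the lower genes from 2927 to 4736 and those past the fold threshold from 3345 to 3845. The median position ran from 0.29 to 0.40. The counts of genes apart from luminal SOX10 low only ran from 173 to 869, from basal SOX10 high only from 1387 to 2647, between from 109 to 850 and above both ends from 155 to 925. Where leaving out a library leaves a group with 1 sample, that sample is assumed to vary like the other groups.

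With the replicate block 6910 genes were called, and no count moved by over 1.5 times. As the numbers of the ends correlated negatively, the crossed block on their 4 libraries was added after seeing the data and called 8347 genes, against 7767 without it.

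Of 153 named genes 142 were called, 128 of them under every alternative, and none of the called ones changed direction. Of the uncalled ones, the log2 fold change of Lalba ran from -0.20 (without the first luminal SOX10 low library) to 0.74, with -0.01 without the first basal SOX10 high library. That of Csn3 ran from -0.73 to 0.10 (without the second basal SOX10 high library). The causes were not tested. The depth of the libraries is unknown beyond the estimate of its ratio between libraries.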
